A study of Mus musculus with 9 samples.

Results

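The 9 genes described here are Tnfaip3, Tnip1, Tnip3, Cyld, Birc2, Birc3, Traf1, Traf2 and Tnfaip2, the genes of A20, its partners, the cellular inhibitors of apoptosis (cIAPs) and their TRAF adaptors. They were picked by symbol, with earlier results of these data known. All 9 symbols matched 1 of the 46603 Ensembl gene identifiers counted in each library. All 9 passed the filter on low counts, which left 14176 genes to be tested. The RNA came from cultured mouse embryonic fibroblasts (MEFs) of the BALB/c strain, from embryos of day 10.5. Every library, mock included, was β-actin knockout, and wild-type cells were not analysed here. In 1 group of 3 libraries, cells were transfected by Lipofectamine in Opti-MEM with poly(I:C), which mimics double-stranded RNA, at 10 µg/ml for 6 h. In another group of 3, poly(dA:dT), which mimics double-stranded DNA, was given at the same dose and time, and the 3 mock libraries received the transfection reagent alone. The labels do not say whether the cells were a clone or whether replicates came from separate cultures. The p-values therefore cover the spread between these libraries alone, which may be technical.

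Signalling from the receptors of tumour necrosis factor and from nucleic acid sensors runs through ubiquitin chains that are built on adaptor proteins and recruit the kinases that release NF-kB. TRAF proteins and cIAPs assemble such chains, while A20 and CYLD edit or remove them. Several of these regulators are themselves NF-kB target genes, and A20 is the classical example of an inhibitor induced by the pathway it restrains.

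The 300-base promoter windows of the genes were searched on both strands for the NF-kB consensus motif, since A20 is known as an NF-kB target. The windows are those of RefSeq on GRCm38.p6, from 250 bases before to 50 bases after a RefSeq transcript start, and all 9 symbols matched, with 11 windows in all. A match was present in 5 of the 11 windows, each in a different gene, while 5.81% of 32851 mouse promoter windows held one. Several of the genes were already known as NF-kB targets when picked, so this contrast is a description and not an independent test. The 5 windows are shown because they place the matched bases, which are in capitals. The window of Tnfaip3 is chr10:19015361-19015660 on the minus strand, with the match 12 to 3 bases before the start. The window of Tnip1 is chr11:54962891-54963190 on the minus strand, with a palindromic match, counted once, 57 to 48 bases before the start. The window of Tnip3 is chr6:65590148-65590447 on the plus strand, with the match 54 to 45 bases before the start. The window of Cyld is chr8:88696778-88697077 on the plus strand, with the match 155 to 146 bases before the start. The window of Tnfaip2 is chr12:111442411-111442710 on the plus strand, with the match 24 to 15 bases before the start.
Tnfaip3: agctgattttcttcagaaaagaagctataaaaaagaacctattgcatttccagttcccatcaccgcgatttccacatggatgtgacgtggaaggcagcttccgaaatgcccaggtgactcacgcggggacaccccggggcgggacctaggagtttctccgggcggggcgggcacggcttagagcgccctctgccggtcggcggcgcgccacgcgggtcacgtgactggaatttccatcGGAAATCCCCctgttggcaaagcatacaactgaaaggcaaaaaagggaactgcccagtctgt
Tnip1: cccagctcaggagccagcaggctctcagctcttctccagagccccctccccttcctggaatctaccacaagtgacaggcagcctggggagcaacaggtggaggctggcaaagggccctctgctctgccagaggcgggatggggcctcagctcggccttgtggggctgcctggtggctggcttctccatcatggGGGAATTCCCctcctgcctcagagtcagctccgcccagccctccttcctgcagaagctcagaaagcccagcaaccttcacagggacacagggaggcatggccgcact
Tnip3: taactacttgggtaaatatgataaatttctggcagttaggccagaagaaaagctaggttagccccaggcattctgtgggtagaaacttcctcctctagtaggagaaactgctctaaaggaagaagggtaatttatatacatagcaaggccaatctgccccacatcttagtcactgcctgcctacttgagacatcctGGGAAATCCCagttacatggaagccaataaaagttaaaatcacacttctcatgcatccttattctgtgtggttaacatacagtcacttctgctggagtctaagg
Cyld: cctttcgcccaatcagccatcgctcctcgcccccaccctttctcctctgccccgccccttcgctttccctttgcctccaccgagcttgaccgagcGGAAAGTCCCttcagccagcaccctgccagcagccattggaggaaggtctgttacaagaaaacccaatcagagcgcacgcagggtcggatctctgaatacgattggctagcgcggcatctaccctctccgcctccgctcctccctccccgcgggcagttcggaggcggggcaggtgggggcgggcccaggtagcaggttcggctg
Tnfaip2: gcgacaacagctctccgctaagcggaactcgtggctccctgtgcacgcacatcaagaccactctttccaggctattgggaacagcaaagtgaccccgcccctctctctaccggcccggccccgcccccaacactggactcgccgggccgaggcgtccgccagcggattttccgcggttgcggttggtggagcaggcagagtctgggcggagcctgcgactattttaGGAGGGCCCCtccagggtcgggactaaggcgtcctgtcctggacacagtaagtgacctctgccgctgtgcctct
The windows of Birc2, Birc3, Traf1 and Traf2 and a second window of Tnfaip3 held no match. A repeat of GAAA after a gap of any 2 bases, the core of sites for interferon regulatory factors, was in none of the 11 windows and in 3.44% of all windows. A match is a description of letters in these windows and not a binding site, and the starts that GENCODE M21 gives can differ from those of RefSeq.

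Each poly(I:C) library held 16082772 to 22382837 counts assigned to genes, each poly(dA:dT) library 20738109 to 23185293 and each mock library 19826550 to 29219797. Levels are given as CPM, the count relative to the library size, here with TMM-scaled library sizes, and 3 counts corresponded to 0.107 to 0.18 CPM. Actb, the knocked-out gene, kept 565 to 736 counts per library after poly(I:C), 657 to 716 after poly(dA:dT) and 658 to 924 in mock, and edgeR called it in none of the 3 comparisons. Its adjusted p in edgeR was 0.52 after poly(I:C) and 0.0613 after poly(dA:dT), each against mock, and 0.223 between the treatments. Which exons were deleted is not stated in the labels, and reads of other actin genes may be counted there. Among 8 fibroblast markers the collagen gene Col1a1 stood at 2019 ± 116 CPM after poly(I:C), 2578 ± 49.8 after poly(dA:dT) and 2996 ± 80.1 in mock, while Thy1 stood at only 0.805 ± 0.227 CPM after poly(I:C), 1.73 ± 0.0647 after poly(dA:dT) and 1.55 ± 0.35 in mock (SD, n = 3). The 8 fibroblast markers summed to 6460 to 6762 CPM after poly(I:C), 7259 to 7381 CPM after poly(dA:dT) and 7524 to 7688 CPM in mock, with 7 called lower after poly(I:C) and 6 after poly(dA:dT). Of all tested genes, 36.3% were called lower after poly(I:C) and 26.2% after poly(dA:dT). The fibronectin gene Fn1 was the 1 fibroblast marker called higher, at 2544 CPM after poly(I:C) and 2401 CPM after poly(dA:dT), against 1925 CPM in mock. The part of these markers in the results below was not tested. In bulk RNA, fewer cells of a type and less RNA per cell cannot be told apart.

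Tnfaip3, the gene of A20, a ubiquitin-editing enzyme that limits NF-kB signalling, had the largest fold change of the 9 genes after poly(I:C), while after poly(dA:dT) it and the much rarer Tnip3 had nearly equal ones. It lies on chromosome 10 (ENSMUSG00000019850, 19000910 to 19015657, minus strand, GRCm38). Its level was 442, 446 and 440 CPM after poly(I:C), 91.0, 89.9 and 90.7 CPM after poly(dA:dT), and 27.0, 31.5 and 32.9 CPM in mock. The 3 groups stood well apart, and the treated libraries of 1 group lay within a few CPM of each other. The fitted rise was 14.7-fold after poly(I:C) (95% interval 14.0 to 15.4; edgeR adjusted p = 1.58e-137) and 3.00-fold after poly(dA:dT) (interval 2.84 to 3.17; edgeR adjusted p = 2.27e-75). Ranked by fold change among the 14176 genes, Tnfaip3 was 267th after poly(I:C) and 322nd after poly(dA:dT).

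**Figure D1:**
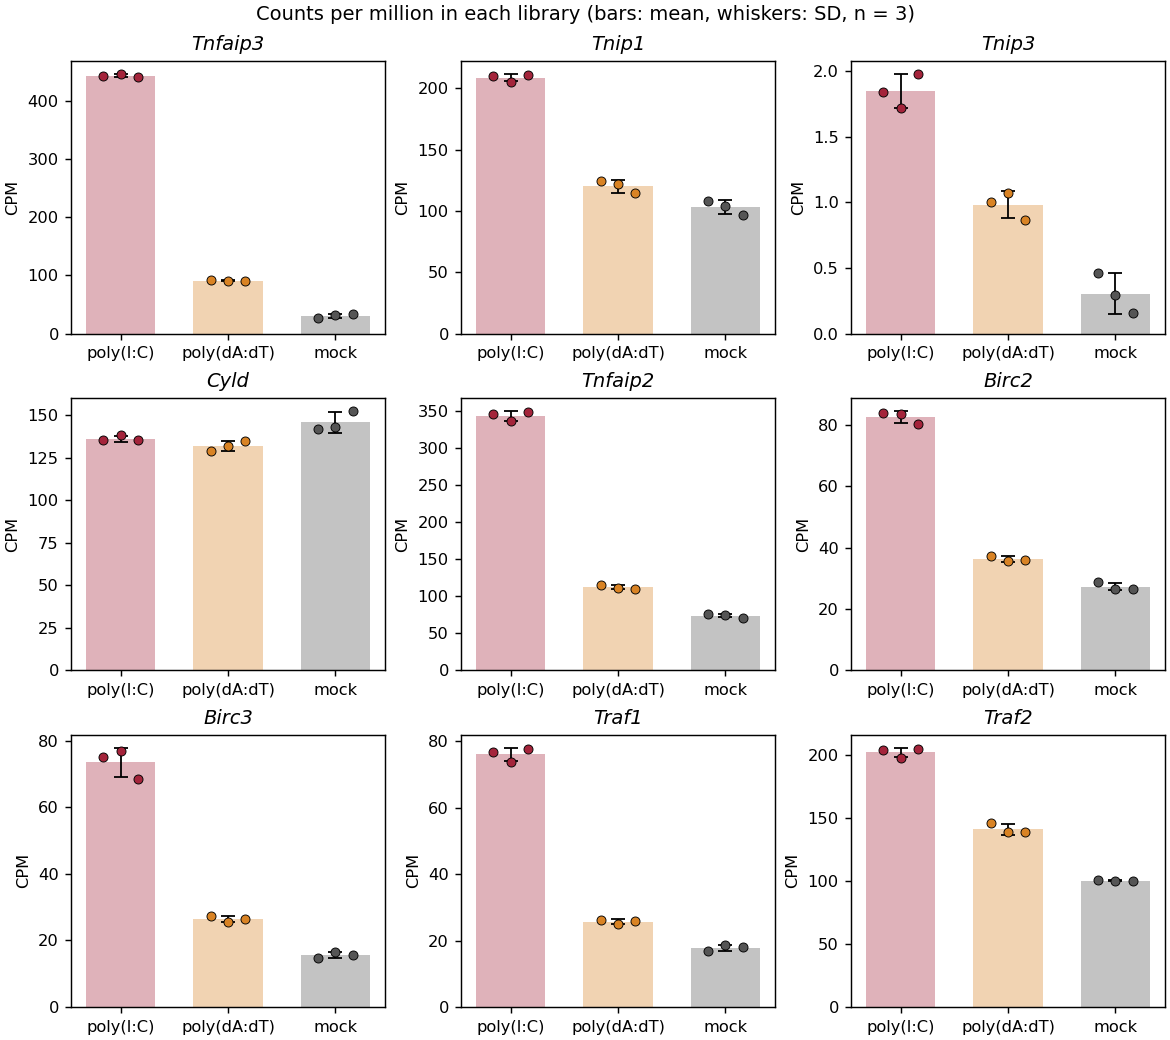
Each panel plots 1 gene in CPM (linear axis from 0), with points for the 3 libraries of the poly(I:C), poly(dA:dT) and mock groups, bars for the mean and whiskers for the SD. In 8 panels the poly(I:C) libraries are the highest and the mock libraries the lowest, with no overlap, while for Cyld all 9 libraries lie between 129 and 153 CPM and mock is the highest.

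Tnip1 encodes ABIN1, a ubiquitin-binding protein that partners A20, and was the most abundant of the 9 genes per length in mock. The gene lies on chromosome 11 (ENSMUSG00000020400, 54910785 to 54962917, minus strand). It had 210, 205 and 211 CPM after poly(I:C), 124, 122 and 114 CPM after poly(dA:dT), and 108, 104 and 96.7 CPM in mock. The poly(dA:dT) and mock libraries lay close together without overlapping. Tnip1 rose 2.01-fold after poly(I:C) (log2 fold change 1.01 ± 0.03 SE, edgeR adjusted p = 1.66e-63) and 1.16-fold after poly(dA:dT) (0.22 ± 0.03, edgeR adjusted p = 3.52e-09).

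Tnip3 encodes ABIN3, another A20-binding relative, and was barely transcribed in these fibroblasts. The gene lies on chromosome 6 (ENSMUSG00000044162, 65525313 to 65634040, plus strand). It had 38, 40 and 33 counts after poly(I:C), 21, 25 and 20 counts after poly(dA:dT), and 13, 7 and 3 counts in mock. These are means of 1.85 ± 0.128 CPM after poly(I:C), 0.982 ± 0.102 CPM after poly(dA:dT) and 0.305 ± 0.154 CPM in mock (SD, n = 3). Tnip3 rose in both comparisons with mock, 5.62-fold after poly(I:C) (log2 fold change 2.49 ± 0.34 SE, edgeR adjusted p = 3.62e-11) and 3.01-fold after poly(dA:dT) (1.59 ± 0.38, edgeR adjusted p = 0.000149). Its standard errors were the largest of the 9 genes in every comparison, and it was not tested where genes needed at least 50 counts in 3 libraries. Its mock libraries alone would not have passed the filter on low counts.

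Cyld encodes a deubiquitinase that removes lysine-63-linked and linear chains, and it was the member that did not rise. The gene lies on chromosome 8 (ENSMUSG00000036712, 88697028 to 88751945, plus strand). Its level was 135, 138 and 135 CPM after poly(I:C), 129, 132 and 135 CPM after poly(dA:dT), and 142, 143 and 153 CPM in mock. Mock was the highest group, and its lowest library lay only a few CPM above the highest treated library. The fitted log2 fold change was -0.14 ± 0.03 after poly(dA:dT) (SE, edgeR adjusted p = 1.52e-05) and -0.09 ± 0.03 after poly(I:C) (edgeR adjusted p = 0.00335). The fall after poly(I:C) was not called under 3 alternatives: the log2 fold change was -0.06 with upper-quartile factors (edgeR adjusted p = 0.0604), 0.02 with total counts (edgeR adjusted p = 0.531) and -0.05 under the filter of 50 counts (edgeR adjusted p = 0.119). Its promoter window holds an NF-kB consensus match, as shown above, and whether such matches go with the response of a gene was not tested.

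Birc2 and Birc3 encode cIAP1 and cIAP2, ubiquitin ligases that bind TRAF2 and act on RIPK1 and on NIK, the kinase of the alternative NF-kB pathway. They are neighbours on the minus strand of chromosome 9, Birc2 at 7818227 to 7837064 (ENSMUSG00000057367) and Birc3 at 7848699 to 7873186 (ENSMUSG00000032000), 11634 bases apart. Birc3 had 75.2, 76.9 and 68.5 CPM after poly(I:C), 27.2, 25.5 and 26.4 CPM after poly(dA:dT), and 14.8, 16.6 and 15.6 CPM in mock. Birc2 had 84.0, 83.5 and 80.2 CPM after poly(I:C), 37.3, 35.5 and 36.1 CPM after poly(dA:dT), and 28.7, 26.6 and 26.5 CPM in mock. For both genes the 3 groups did not overlap. Birc3 rose 4.72-fold after poly(I:C) (log2 fold change 2.24 ± 0.06 SE, edgeR adjusted p = 3.86e-82) and 1.69-fold after poly(dA:dT) (0.75 ± 0.06, edgeR adjusted p = 9.84e-22). Birc2 rose 3.02-fold after poly(I:C) (1.59 ± 0.05, edgeR adjusted p = 6.81e-72) and 1.32-fold after poly(dA:dT) (0.41 ± 0.05, edgeR adjusted p = 1.03e-11). Some reads of the pair cannot be assigned with certainty, since 7.56% of the 50-base stretches of Birc3 transcripts and 1.49% of those of Birc2 also occur in transcripts of other genes, each other included. Summed over both genes, which removes any exchange between them, the level was 149 to 160 CPM after poly(I:C), 61.0 to 64.5 CPM after poly(dA:dT) and 42.1 to 43.5 CPM in mock.

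Traf2 encodes the adaptor that brings cIAPs to the receptor complex, and Traf1 a relative without the RING domain that binds TRAF2. Both lie on the minus strand of chromosome 2, Traf1 at 34941750 to 34961772 (ENSMUSG00000026875) and Traf2 at 25517982 to 25546940 (ENSMUSG00000026942). Traf1 had 76.8, 73.7 and 77.8 CPM after poly(I:C), 26.2, 24.9 and 25.9 CPM after poly(dA:dT), and 16.9, 18.6 and 18.0 CPM in mock. Traf2 had 204, 198 and 205 CPM after poly(I:C), 146, 139 and 139 CPM after poly(dA:dT), and 101, 99.8 and 100.2 CPM in mock. The groups did not overlap for either gene. Traf1 rose 4.27-fold after poly(I:C) (log2 fold change 2.10 ± 0.05 SE, edgeR adjusted p = 6.06e-81) and 1.44-fold after poly(dA:dT) (0.53 ± 0.06, edgeR adjusted p = 1.13e-13). Traf2 rose 2.02-fold after poly(I:C) (1.01 ± 0.03, edgeR adjusted p = 1.18e-72) and 1.41-fold after poly(dA:dT) (0.49 ± 0.03, edgeR adjusted p = 1.44e-33). The 2 TRAF genes thus had like fold changes after poly(dA:dT), 1.44-fold and 1.41-fold, and unlike ones after poly(I:C), 4.27-fold and 2.02-fold.

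Tnfaip2 encodes M-Sec, a protein related to the exocyst that was found as a transcript induced by tumour necrosis factor. The gene lies on chromosome 12 (ENSMUSG00000021281, 111442469 to 111455018, plus strand). It had 346, 336 and 348 CPM after poly(I:C), 116, 111 and 109 CPM after poly(dA:dT), and 75.2, 74.1 and 70.9 CPM in mock. No libraries of different groups overlapped. Tnfaip2 rose 4.66-fold after poly(I:C) (log2 fold change 2.22 ± 0.03 SE, edgeR adjusted p = 1.96e-122) and 1.52-fold after poly(dA:dT) (0.61 ± 0.03, edgeR adjusted p = 1.04e-39). Another gene, Gm40578, holds 239 of the 5273 distinct 50-base stretches of Tnfaip2 transcripts, searched on both strands, and was not among the counted identifiers. Reads of Gm40578 may therefore be counted for Tnfaip2 there, and the strand setting of the counting is not given.

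Counted together, 8 of the 9 genes were called higher and 1 lower after poly(I:C), where 39.8% of all tested genes were called higher and 36.3% lower. After poly(dA:dT) the counts were again 8 higher and 1 lower, against 26.6% and 26.2% of all genes. The median log2 fold change of the 9 genes was 2.10 after poly(I:C), beside 0.04 over all genes, and 0.53 after poly(dA:dT), beside 0.01. Both comparisons use the same mock libraries. All 9 genes were therefore called after both treatments, as were 76.1% of all genes after poly(I:C) and 52.8% after poly(dA:dT). A call with a rise of at least 2-fold was made for 8 of the 9 genes after poly(I:C), against 13.1% of all genes, with Tnip1 and Traf2 just past that fold. After poly(dA:dT) such a rise was seen for Tnfaip3 and Tnip3, 2 of the 9 genes, against 3.84% of all genes. Tnip3, with 3 to 13 counts in mock, passed the filter on low counts through its treated libraries, which favours a rise. For every member the poly(I:C) and mock libraries stood apart without overlap, as for 76.8% of all genes, and so did the poly(dA:dT) and mock libraries, as for 57.3%. The 9 genes were chosen with earlier results of these data known. Their contrast with all genes, here and between the treatments below, is therefore a description and not an independent test.

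Compared directly, poly(I:C) gave higher levels than poly(dA:dT) for 8 of the 9 genes, where 31.3% of all genes were called higher, 32.1% lower and 63.4% in either direction. The rise was at least 2-fold for 5 of the 9 genes, against 7.62% of all genes, and no member's libraries overlapped between the treatments, as for 66.1% of all genes. The difference was 4.89-fold for Tnfaip3 (log2 fold change 2.29 ± 0.03 SE), 3.06-fold for Tnfaip2, 2.96-fold for Traf1, 2.80-fold for Birc3, 2.28-fold for Birc2, 1.87-fold for Tnip3, 1.73-fold for Tnip1 and 1.43-fold for Traf2. Adjusted p-values of edgeR ran from 5.11e-116 for Tnfaip3 to 0.00267 for Tnip3. Cyld was not called, with a ratio of 1.03 and an interval of 0.992 to 1.08 (edgeR adjusted p = 0.157), although it was called higher after poly(I:C) with total counts (log2 fold change 0.09, edgeR adjusted p = 0.00777) and under the filter of 50 counts (0.08, edgeR adjusted p = 0.0135).

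**Figure D2:**
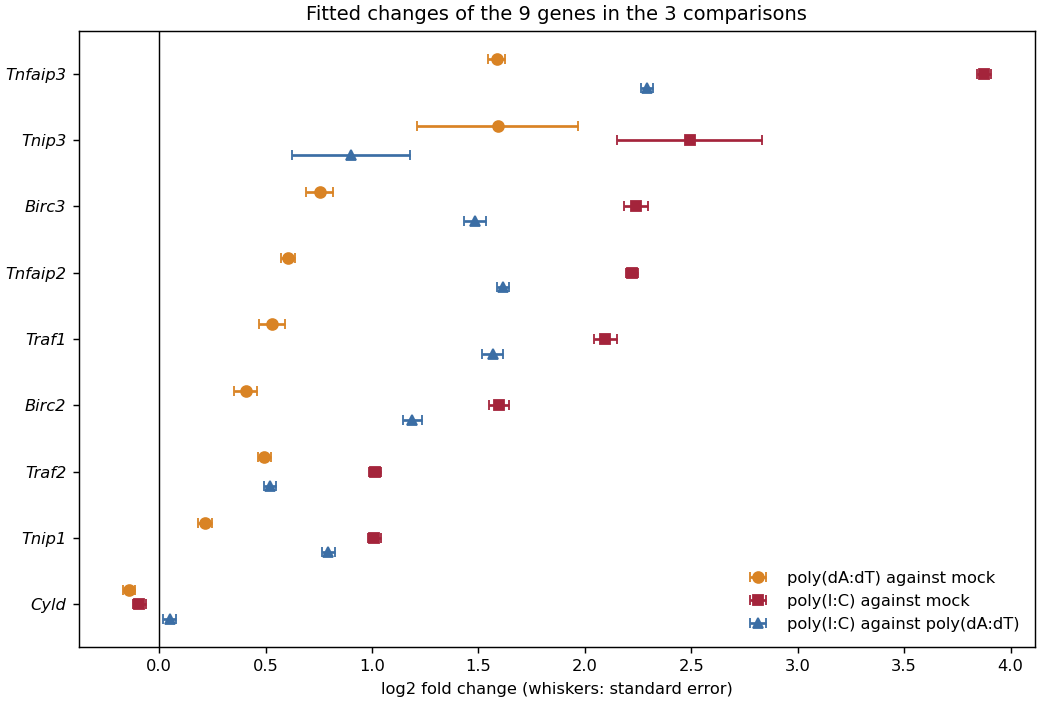
The plot shows fitted log2 fold changes on the horizontal axis for each gene, with circles for poly(dA:dT) and squares for poly(I:C), each against mock, triangles for poly(I:C) set against poly(dA:dT), and whiskers for the standard error. Tnfaip3 is farthest to the right at 3.87 after poly(I:C), and the 3 points of Cyld lie near 0, between -0.14 and 0.05.

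The order of the genes by level was read on a scale per length, CPM per kb of exon in GENCODE M21. In mock the order was Tnip1 (29.1), Traf2 (19.6), Tnfaip2 (14.7), Cyld (11.6), Birc2 (5.96), Tnfaip3 (4.22), Birc3 (3.13), Traf1 (2.02) and Tnip3 (0.0279). After poly(dA:dT) the same order held except that Tnfaip3, at 12.5, stood above Cyld, at 10.5, and Birc2, at 7.92. After poly(I:C) the first 3 were Tnfaip2 (68.9), Tnfaip3 (61.3) and Tnip1 (58.9), and Cyld (10.8) stood below Birc2 (18.0) and Birc3 (14.7). Traf1 remained eighth and Tnip3 ninth in all 3 groups, and no neighbours in any of the 3 orders had overlapping values. Per length, A20 transcripts thus stood below those of CYLD in mock and above them in both treated groups. Without division by length the orders changed in several places. Tnfaip3 after poly(dA:dT) was below Cyld, at 90.5 against 132 CPM, and Cyld was the highest in mock, at 146 CPM. After poly(I:C) Tnfaip3 (443 CPM) stood above Tnfaip2 (343 CPM). Cyld (136 CPM) stood there above Birc2 (82.6 CPM), and Traf1 (76.1 CPM) above Birc3 (73.6 CPM).

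**Figure D3:**
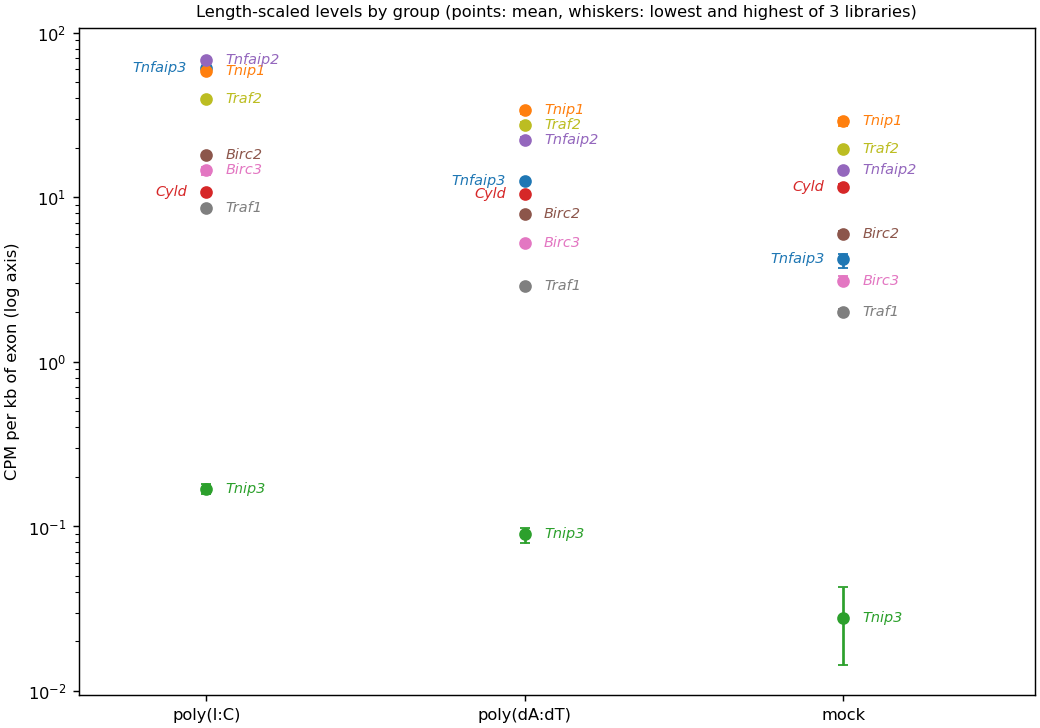
Points give the mean level of each gene in CPM per kb of exon on a log axis, for poly(I:C), poly(dA:dT) and mock, and whiskers span the lowest and highest of 3 libraries. Tnfaip3 lies at 61.3 after poly(I:C), 12.5 after poly(dA:dT) and 4.22 in mock, while Cyld stays between 10.5 and 11.6.

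The balance within the 2 related pairs was described by a share of their summed level per length. Birc3 made up 45.0%, 45.7% and 43.9% of Birc2 plus Birc3 after poly(I:C), 40.0%, 39.7% and 40.1% after poly(dA:dT), and 32.1%, 36.3% and 34.9% in mock. Birc2 therefore remained the more abundant cIAP transcript in all 9 libraries, and the 3 groups did not overlap. Traf1 made up 17.9%, 17.7% and 18.0% of Traf1 plus Traf2 after poly(I:C), 9.40%, 9.40% and 9.75% after poly(dA:dT), and 8.86%, 9.71% and 9.41% in mock. The Traf1 share was thus higher after poly(I:C), while the poly(dA:dT) and mock libraries overlapped. Of 6 exact two-sided permutation tests, 5 gave p = 0.1, the smallest that 3 libraries against 3 allow (0.12 after Benjamini-Hochberg adjustment). The Traf1 share differed between poly(dA:dT) and mock by 0.189 percentage points, with an exact p = 0.6 (0.6 adjusted).

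**Figure D4:**
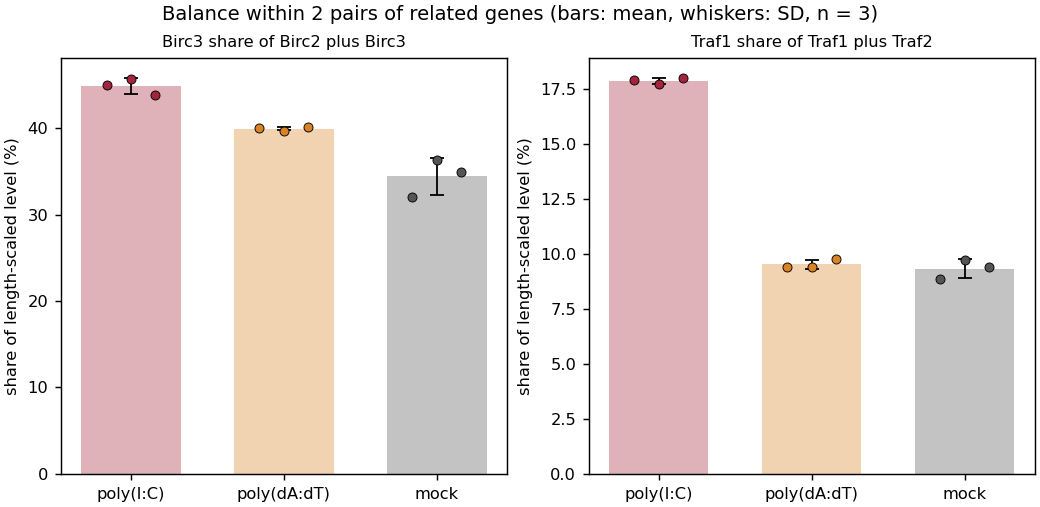
The left panel plots the percentage of Birc3 in Birc2 plus Birc3 and the right panel that of Traf1 in Traf1 plus Traf2, per length, with points for libraries, bars for the mean and whiskers for the SD of poly(I:C), poly(dA:dT) and mock. The Birc3 share is 44.9% after poly(I:C), 39.9% after poly(dA:dT) and 34.4% in mock, while the Traf1 share is 17.8% after poly(I:C), 9.52% after poly(dA:dT) and 9.33% in mock.

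Other genes of the pathway were taken from 3 lists, chosen, like the 9 genes, with earlier results of these data known. In the list of NF-kB subunits and IkB proteins, all 10 genes were called higher after poly(I:C) and 9 of 10 after poly(dA:dT), with median log2 fold changes of 1.24 after poly(I:C) and 0.39 after poly(dA:dT). Of all tested genes, 39.8% were called higher after poly(I:C) and 26.6% after poly(dA:dT), with medians of 0.04 and 0.01. Nfkbie, the gene of the inhibitor IkB-epsilon, rose 7.76-fold after poly(I:C) and 1.92-fold after poly(dA:dT). Relb, a subunit of the alternative pathway, rose 2.95-fold after poly(I:C) and 1.56-fold after poly(dA:dT). Nfkbia, the gene of IkB-alpha, rose 2.88-fold after poly(I:C) and 1.38-fold after poly(dA:dT). The gene that was not called after poly(dA:dT) was Nfkbib, with a log2 fold change of 0.01 ± 0.07 (SE).

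The second list holds the receptor complex and its kinases. Of its 14 genes, 9 were called higher and 4 lower after poly(I:C), and 7 higher and 3 lower after poly(dA:dT), with median log2 fold changes of 0.20 after poly(I:C) and 0.08 after poly(dA:dT). Over all tested genes, 39.8% were called higher and 36.3% lower after poly(I:C), and 26.6% higher and 26.2% lower after poly(dA:dT). Map3k14, which encodes NIK, a kinase that TRAF2 and cIAPs hold in check, rose 2.24-fold after poly(I:C) and 1.59-fold after poly(dA:dT). Traf5, a TRAF adaptor, rose 1.72-fold after poly(I:C) and 1.37-fold after poly(dA:dT). Traf6 rose 1.49-fold after poly(I:C) and 1.17-fold after poly(dA:dT). Tab1, the gene of a partner of the kinase TAK1, rose 1.27-fold after each treatment. Tnfrsf1a, the gene of the tumour necrosis factor receptor itself, fell to 119 CPM after poly(I:C) and 144 CPM after poly(dA:dT), against 162 CPM in mock. Tradd, its death-domain adaptor, fell to 23.1 CPM after poly(I:C) and 28.2 CPM after poly(dA:dT), against 30.8 CPM in mock, although its poly(dA:dT) and mock libraries overlapped (edgeR adjusted p = 0.0438). Ikbkg, the gene of the NEMO subunit, fell by 0.27 on the log2 scale after poly(I:C). After poly(dA:dT) Ikbkg was not called (edgeR adjusted p = 0.0657). Map3k7, the gene of TAK1, fell by 0.14 on the log2 scale after poly(I:C) and by 0.08 after poly(dA:dT), both called. The number lower after poly(dA:dT) was 1 when mock replicate 2 or poly(dA:dT) replicate 3 was left out, and also with upper-quartile factors or total counts.

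Among 14 ubiquitin ligases, deubiquitinases and adaptors that work with A20, CYLD and the cIAPs, 5 were called higher, 4 lower and 5 not called after poly(I:C). After poly(dA:dT) 3 were higher, 4 lower and 7 not called, with median log2 fold changes of 0.06 after poly(I:C) and -0.03 after poly(dA:dT). These counts lie near the shares over all genes given for the list of the receptor complex. With total counts, 9 were higher after poly(I:C). Rnf31, the catalytic subunit of the linear ubiquitin ligase complex, rose to 51.3 CPM after poly(I:C) and 26.2 CPM after poly(dA:dT), against 16.5 CPM in mock. Tank, a TRAF-binding adaptor, rose 1.73-fold after poly(I:C) and 1.11-fold after poly(dA:dT). Tnip2, which encodes the remaining ABIN protein, rose 1.60-fold after poly(I:C) and 1.36-fold after poly(dA:dT). RNF11, TAX1BP1 and ITCH are known to act in a complex with A20. Rnf11 fell to 94.6 CPM after poly(I:C) and 113 CPM after poly(dA:dT), against 138 CPM in mock, and Tax1bp1 fell to 127 CPM after poly(I:C) and 148 CPM after poly(dA:dT), against 168 CPM in mock. Itch, a ubiquitin ligase, was not called after either treatment (edgeR adjusted p = 0.737 for poly(I:C) and 0.95 for poly(dA:dT)). Ube2n, which encodes a ubiquitin-conjugating enzyme for lysine-63 chains, had log2 fold changes of -0.42 after poly(I:C) and -0.20 after poly(dA:dT), both called. Xiap, a further gene of the inhibitor of apoptosis family, had log2 fold changes of -0.30 after poly(I:C) and -0.28 after poly(dA:dT), both called.

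**Figure D5:**
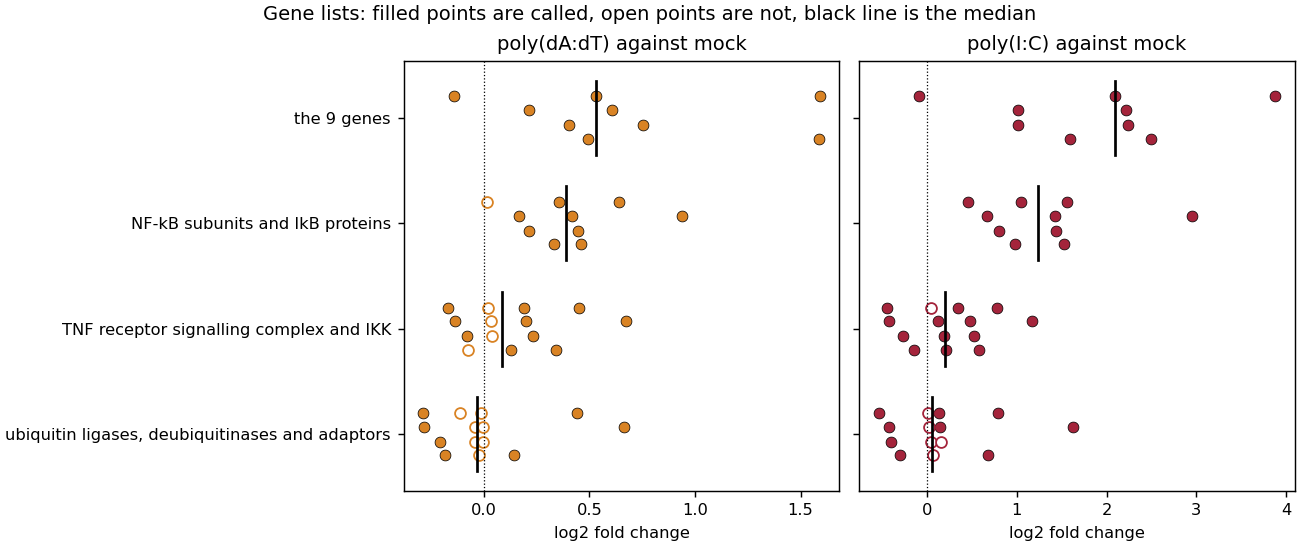
Each point is 1 gene at its log2 fold change against mock, with poly(dA:dT) in the left panel and poly(I:C) in the right one, filled where called and open where not, with a black line at the list's median; the 2 panels have different horizontal scales. The medians of the 9 genes are 2.10 after poly(I:C) and 0.53 after poly(dA:dT), and those of the ubiquitin list 0.06 for poly(I:C) and -0.03 for poly(dA:dT).

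The genes whose pattern over the 9 libraries was most like that of a member were found by the root mean square difference of log2(CPM + 0.5), centred on the mock mean, among 10221 genes with a mean of at least 5 CPM. For Tnfaip3 they were Egr2 (0.08), Csrnp1 (0.13), Gem (0.13) and Helz2 (0.14). For Birc3 they were Casp4 (0.07), Trim26 (0.08), Tap1 (0.10) and Rhob (0.10). For Traf1 they were Ttc39c (0.07), Irf5 (0.09), Tor3a (0.10) and Ccl2 (0.10). Egr2 encodes an immediate early transcription factor and Ccl2 a monocyte chemokine, and the measure describes only the shape and size of the change.

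TRAF1, cIAP2 and Tnfaip2 are also known from immune and endothelial cells, so markers of those cells were read beside them. The summed level of 6 endothelial markers was 5.58 to 6.84 CPM after poly(I:C), 3.70 to 4.88 CPM after poly(dA:dT) and 1.95 to 2.62 CPM in mock. This sum moved in the same direction as the 8 members called higher. Of these markers 4 were tested and 3, Pecam1, Cdh5 and Kdr, were called higher in each comparison with mock. Summed over the mock libraries, Pecam1 had 29 counts, Cdh5 0 and Kdr 32. Cdh5 thus passed the filter on low counts through treated libraries, which favours a rise, and Pecam1 and Kdr may have done so. After poly(dA:dT), 4 endothelial markers were called higher without that filter, and 2 when the poly(I:C) libraries took no part in the fit. None of the endothelial markers reached the counts needed to be tested under the filter of 50 counts. Of all tested genes, 39.8% were called higher after poly(I:C) and 26.6% after poly(dA:dT). Emcn had 0 counts in all 9 libraries and Cdh5 had 0 in mock, and the part of such cells in the results was not tested. The summed level of 8 macrophage markers ran the other way, at 5.64 to 7.71 CPM after poly(I:C), 8.44 to 8.73 CPM after poly(dA:dT) and 10.4 to 11.3 CPM in mock. Of 4 tested, 3 were called lower after poly(I:C) and 1 after poly(dA:dT), or 0 when poly(dA:dT) replicate 1 was left out. The shares of all genes called lower were 36.3% after poly(I:C) and 26.2% after poly(dA:dT). Ptprc and Tyrobp had 0 counts in every library. Among the lymphocyte markers reported, Cd3e had 0 counts in every library. Summed over the 3 libraries of a group, Cd79a had 4 counts after poly(I:C), 5 after poly(dA:dT) and 4 in mock. Ms4a1 had 2 counts after poly(I:C), 3 after poly(dA:dT) and 2 in mock, and Cd2 had 0, 0 and 1 in the poly(I:C), poly(dA:dT) and mock groups.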

How the data were processed

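RNA was measured in 9 libraries, 3 per group, made with a TruSeq RNA kit per the labels' protocols. The values deposited by the authors are raw read counts per Ensembl gene, 46603 per file, and none of the lines is a tally of unassigned reads. The tools were TopHat2 2.1.0, HTSeq and DESeq2 and the build GRCm38.p4, per the submitters' processing notes, which do not give their roles. The sources used here do not give the strand setting, annotation release or handling of multiply mapped reads. Symbols and positions came from GENCODE M21 (GRCm38), which holds 46091 of the identifiers, and all 74 listed symbols matched.

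The counts were tested as deposited with the quasi-likelihood test of edgeR 4.0.16 (R 4.3.3), robust and two-sided, with TMM scaling, filterByExpr and 1 mean per group over all 9 libraries, which gave 6 residual degrees of freedom. The test also shares information on the spread across genes, so p-values and intervals of the members rest on more than these 6. Benjamini-Hochberg adjustment ran over all 14176 tested genes, and genes with an adjusted p below 0.05 are called. Standard errors were derived from the F statistic, as the size of the log2 fold change over the root of F, and intervals are at 95%. Levels are given as mean ± SD. Replicates differed by more than sampling noise in every pair, with a chi-square per degree of freedom of 1.64 to 2.1, so each library was counted once. The library totals, given with the results, set the counting precision, and limits of 3 counts cover counting error only.

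The members and gene lists were chosen with earlier results of these data known. All 9 members are described. Up to 3 called genes per direction are named from each other pathway list in each comparison with mock, and the 4 most alike genes for Tnfaip3, Birc3 and Traf1. Nfkbib, Itch and the markers were named outside this rule. The summed level of the lymphocyte markers is not reported here. A looser NF-kB pattern was dropped after its share of all promoter windows had been seen. Alternatives were other scalings (DESeq2 1.42.0 size factors, upper quartiles, total counts), other filters, the DESeq2 test, a fit of only the groups compared, a replicate block and each library left out.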

Additional observations from a re-analysis of the deposited data

How the results depend on the processing

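Over 14 alternatives per comparison, 370 of 375 member fold changes kept their direction and their side of the threshold. The 5 others were all of Cyld, and the cause was not tested. After poly(I:C) against mock its log2 fold change was -0.06 with upper-quartile factors, -0.05 under the filter of 50 counts and 0.021, reversed, with total counts, so 0 members were lower in those 3 settings. Against poly(dA:dT), Cyld after poly(I:C) was called higher with total counts (0.09) and under the filter of 50 counts (0.08). That filter left Tnip3 untested, and no call of a member changed when any 1 library was left out. Total counts moved the median log2 fold change of all genes after poly(I:C) to 0.151, where it was 0.0363 with TMM, and gave 5004 genes higher and 2389 lower after poly(dA:dT), a share of 67.7% higher against 50.3% with TMM. Without division by length, the Birc3 share was 47.1% after poly(I:C) and 42.1% after poly(dA:dT), and the Traf1 share 27.3% after poly(I:C), 15.4% after poly(dA:dT) and 15.1% in mock. Replicate numbers showed no pairing in the counts: same-numbered libraries of different groups had correlations of deviations from -0.0138 to 0.0225, and other libraries from -0.0326 to 0.0242. Whether same-numbered libraries shared a culture was not tested. With the replicate block, 5615 genes were higher and 5109 lower after poly(I:C), 3723 and 3661 after poly(dA:dT), and the counts of members were 8 higher and 1 lower in both. Depth limits Tnip3 most, with 3 to 13 counts in mock.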
